A study of Mus musculus with 5 samples.

Results

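The 5 genes described here, Nrxn3, Rims1, Rims2, Erc1 and Syn2, encode proteins of the presynaptic terminal. They were chosen by name, as 5 of the 4713 genes that carried a called region in any of the deposited lists. Regions inside one of these genes, across one of its ends or around it, by the annotation in the files, were taken. There were 92 of them, 21, 15, 27 and 29 in the 4 lists, with a region called in more than 1 list counted in each. The series measured RNA bound by CYFIP1 in mouse hippocampus by RNA immunoprecipitation sequencing, in which an antibody pulls a protein out of a lysate and the RNA that comes with it is sequenced. All mice were of the strain C57BL/6. The knock-in hippocampi were precipitated with anti-HA, which binds a short peptide tag (libraries HA 1 and HA 2), and with mouse control IgG (libraries IgG 1 and IgG 2). The third group is 1 wild-type hippocampal sample precipitated with the same anti-HA antibody (the wild-type library). The labels number the knock-in samples 1 and 2, here called mouse 1 and mouse 2 for short, and do not say how many animals were pooled, how old they were or in which cells the tagged protein was made. That the tag sits on CYFIP1 is read from the design text and the Cyfip1 reads, since the labels say only knock-in.

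At an excitatory or inhibitory terminal, synaptic vesicles dock and fuse at the active zone, a protein sheet under the presynaptic membrane. RIM proteins (Rims1, Rims2) tie vesicles and calcium channels to this sheet, ELKS (Erc1) is one of its scaffolds, neurexins (Nrxn3) span the membrane and bind partners across the cleft, and synapsins (Syn2) cluster the reserve vesicles behind it. CYFIP1 binds FMRP, an RNA-binding protein that represses translation, and is also a subunit of the WAVE complex, which drives actin branching.

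One coding stretch of each mRNA is shown, the one that lay wholly inside a called region in the most lists, with ties broken by HA reads and then by length. In 4 of the 5 genes it was the last coding exon, the end of the reading frame up to the stop codon. In Rims1 2 coding exons and in Rims2 4, the one shown included, were covered in the same highest number of lists, so these tie rules decided there. The stretches are given 5′ to 3′ on the mRNA strand, from GENCODE M21 transcripts on GRCm38 (mm10). Capitals mark TGGA and AGGA, the letters of a short motif described for FMRP; only the mRNA strand was searched. The Nrxn3 stretch is the last 300 of 623 bases of coding exon 20 of 20 (chr12:90332111-90332410, plus strand), inside a region in 4 lists. The Rims1 stretch is coding exon 37 of 37 (chr1:22288422-22288640, minus strand), inside a region in 3 lists. The Rims2 stretch is coding exon 27 of 27 (chr15:39681546-39681764, plus strand), inside a region in 4 lists. The Erc1 stretch is coding exon 19 of 19 (chr6:119575625-119575762, minus strand), inside a region in 3 lists. The Syn2 stretch is coding exon 6 of 13 (chr6:115254163-115254225, plus strand), inside a region in 3 lists.
Nrxn3: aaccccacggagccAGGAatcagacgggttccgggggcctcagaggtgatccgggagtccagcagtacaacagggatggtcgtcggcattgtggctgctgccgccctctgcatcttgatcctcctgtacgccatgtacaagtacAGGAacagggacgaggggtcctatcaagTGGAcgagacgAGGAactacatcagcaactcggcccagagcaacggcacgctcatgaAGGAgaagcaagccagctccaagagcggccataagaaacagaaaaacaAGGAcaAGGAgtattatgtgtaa
Rims1: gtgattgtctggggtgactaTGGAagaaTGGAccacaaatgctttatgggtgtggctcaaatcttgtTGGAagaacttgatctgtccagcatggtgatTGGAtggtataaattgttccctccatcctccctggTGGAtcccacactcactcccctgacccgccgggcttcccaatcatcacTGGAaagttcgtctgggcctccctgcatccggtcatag
Rims2: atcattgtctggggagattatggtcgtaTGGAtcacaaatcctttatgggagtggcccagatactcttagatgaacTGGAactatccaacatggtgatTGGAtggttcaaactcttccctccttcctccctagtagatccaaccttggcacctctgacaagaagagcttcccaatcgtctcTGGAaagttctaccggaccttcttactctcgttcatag
Erc1: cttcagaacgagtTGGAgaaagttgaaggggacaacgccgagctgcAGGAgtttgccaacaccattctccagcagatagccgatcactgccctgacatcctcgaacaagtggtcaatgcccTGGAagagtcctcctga
Syn2: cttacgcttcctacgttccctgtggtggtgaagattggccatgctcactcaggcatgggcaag

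The motif letters occurred 7, 6, 4, 3 and 0 times in the Nrxn3, Rims1, Rims2, Erc1 and Syn2 stretches. Such letters are common in coding sequence: 97.4% of 300-base windows, 94.2% of 219-base windows, 85.9% of 138-base windows and 61.1% of 63-base windows from the middle of complete coding sequences held at least 1 match. The stretches of Rims1 and Rims2, which encode the end of the C-terminal C2 domain and the tail of both proteins, had 166 of 219 bases in common (75.8%), with a longest identical run of 17 bases. A 50-base read could therefore tell the 2 RIM mRNAs apart here, and no 50-base word was shared between any of the 5 genes. Erc1 shared 10.7% of its 50-base words with other genes, mostly Gm44317, and Nrxn3 shared 3.04% with Gm37980, so reads there could have been assigned to either copy.

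The lists each join a pair of libraries: HA 1 over IgG 1, HA 2 over IgG 2, HA 1 over wild type and HA 2 over wild type. The IgG and the wild-type list of a mouse thus share 1 HA library. Of the member regions, 20 in mouse 1 and 15 in mouse 2 had identical coordinates in both lists. Agreement between these lists is therefore not independent. The lists held between 1920 and 5362 regions and between 64055 and 166760 HA reads. Reads outside regions are not part of the lists, so library depth is unknown. To compare genes across lists, the HA to control ratio of a gene was divided by the median ratio of all regions with at least 20 reads in that list, which was 2.89, 0.947, 1.41 and 1.75. This quotient is called the fold, and a fold of 1 means that a gene was pulled down like the middle region of its list. Cyfip1 itself had 6101 and 6186 HA reads and folds between 8.50 and 56.8, which checks the labels of the knock-in HA libraries. Of the marker genes searched, 3 of 10 for hippocampal neurons, 3 of 6 for astrocytes, 2 of 6 for oligodendrocytes and none of 12 for microglia, endothelium and choroid plexus had a region in any list. Fewer cells of a type and less RNA per cell cannot be told apart in these lysates.

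None of the 5 mRNAs stood out from the other genes of its list. Their folds ran from 0.749 to 1.17 over IgG in mouse 1, from 0.939 to 1.24 over IgG in mouse 2, from 0.779 to 1.16 over wild type with HA 1, and from 0.783 to 1.40 over wild type with HA 2. No member lay past 2-fold in either direction in any list, where 29.8%, 27.8%, 17.5% and 16.1% of all genes with at least 20 reads did. The counting interval of every member included 1 in every list, and no pair of members had intervals apart in any list (0 of 10, 0 of 1, 0 of 10 and 0 of 10 pairs). Summed over the members, the fold was 0.941 over IgG in mouse 1 (95% exact Clopper-Pearson interval 0.669 to 1.34), 1.15 in mouse 2 (0.841 to 1.56), 0.982 over wild type with HA 1 (0.784 to 1.23) and 1.00 with HA 2 (0.792 to 1.27). Intervals cover counting error only, since reads without molecular identifiers are not independent molecules. The members gave 0.12% to 0.14% of the HA reads of a list, and their medians of 0.950, 1.09, 1.13 and 1.02 lay near the medians of all genes, 0.839, 0.822, 1.15 and 1.10.

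**Figure D1:**
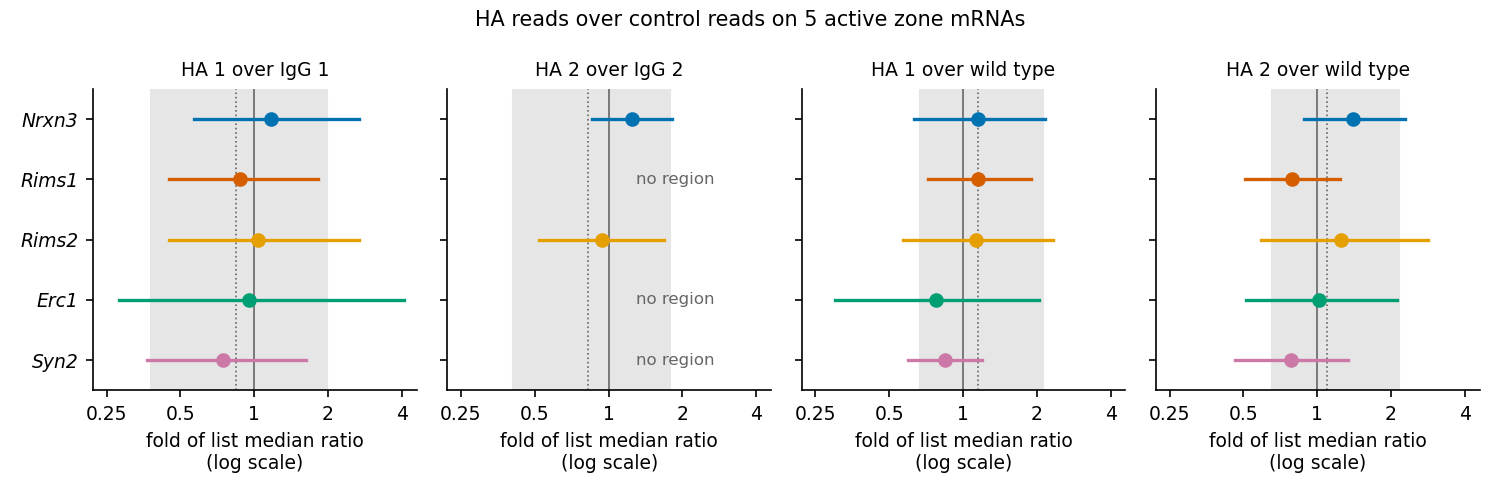
Fold of each gene (points) with its 95% counting interval (bars) in the 4 lists, on a log axis; the grey band holds 80% of all genes with at least 20 reads, the dotted line is their median and the solid line a fold of 1. Every interval crosses 1, and Rims1, Erc1 and Syn2 have no region in the list of HA 2 over IgG 2.

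Nrxn3 encodes neurexin 3, a presynaptic adhesion receptor whose extracellular part binds neuroligins and LRRTM proteins. The gene spans 1612 kb of chromosome 12 (chr12:88722876-90334935, plus strand). In mouse 1 its regions held 34 HA reads beside 10 IgG reads, and in mouse 2 they held 66 beside 56. Against the wild-type library they held 31 HA and 19 wild-type reads for HA 1, and 66 HA and 27 wild-type reads for HA 2. HA reads outnumbered control reads in all 4 lists. The folds were 1.17 (0.567 to 2.67), 1.24 (0.859 to 1.81), 1.16 (0.632 to 2.17) and 1.40 (0.880 to 2.27), above 1 in each list with every interval reaching below 1. The mean log2 fold was 0.27 ± 0.06 (SD, n = 2) over IgG and 0.35 ± 0.19 (SD, n = 2) over wild type. Outside Malat1 and regions whose wild-type reads were unequal between lists, the 2 HA libraries differed by no more than sampling noise over shared regions. An n of 2 may thus overstate the replication on the HA side.

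What Nrxn3 had above the list medians lay in intronic regions. In the lists of HA 2, 7 of its 12 regions touched no annotated exon, and these held 23 HA reads against 7 IgG and 2 wild-type reads. They gave folds of 3.47 (1.44 to 9.58) over IgG 2 and 6.57 (1.62 to 57.5) over wild type with HA 2. Both intervals lay above 1, and both folds share the same HA reads. In the lists of HA 1, 2 intronic regions over IgG and 1 over wild type held 6 and 3 HA reads and no control read. Without control reads no fold was given there, and the lower interval limits were 0.407 and 0.293, below 1. The exonic regions alone gave folds of 0.967 (0.456 to 2.23), 0.927 (0.601 to 1.43), 1.04 (0.562 to 1.98) and 0.983 (0.587 to 1.68), all close to the list median. Regions of all genes were split the same way. Among regions with 2 to 7 HA reads, the summed HA to control ratio was 5.80 in introns and 3.40 in exons over IgG 1, 2.29 and 1.05 over IgG 2, 5.70 and 2.15 over wild type with HA 1, and 6.98 and 2.24 with HA 2. Over regions of any size the intronic and exonic ratios were 4.07 and 4.12 over IgG 1, 2.57 and 1.68 over IgG 2, 0.699 and 0.832 over wild type with HA 1, and 0.746 and 0.843 with HA 2, so introns were the higher only over IgG 2. The rule by which regions were called, which the sources used here do not give, may bear on such ratios, and its part was not tested.

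Neurexin 3 mRNA was also read against the other genes of its chromosome. Chromosome 12 genes had a median fold of 0.518 over IgG 1 and 0.704 over IgG 2, below the medians of all genes. Within that chromosome Nrxn3 stood at the 90.6th and 85.4th percentile over IgG, against the 70.7th and 76.7th among all genes. Over wild type it stood at the 36.7th and 67.9th percentile of chromosome 12. The high place within the chromosome was thus present over IgG and not over wild type with HA 1, a difference that was not tested.

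Rims1 encodes RIM1, which binds Rab3 on vesicles and recruits calcium channels. The gene lies on chromosome 1 (chr1:22286251-22805994, minus strand). Its regions held 33 HA and 13 IgG reads in mouse 1, 49 HA and 30 wild-type reads for HA 1, and 51 HA and 37 wild-type reads for HA 2. HA reads were the higher in each of these lists. The folds were 0.877 (0.449 to 1.82) over IgG in mouse 1, 1.16 (0.720 to 1.89) over wild type with HA 1 and 0.788 (0.506 to 1.24) with HA 2. The mean log2 fold over wild type was -0.07 ± 0.39 (SD, n = 2), with HA 1 above and HA 2 below the list median.

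Rims2 encodes RIM2, the close relative of RIM1 (chr15:39198261-39684372, plus strand). Each HA library held 24 reads in its regions in every list, beside 8 IgG reads in mouse 1, 27 IgG reads in mouse 2, and 15 and 11 wild-type reads. IgG 2 was the only control with more reads than HA. After division by the list medians the folds were 1.04 (0.450 to 2.67), 0.939 (0.519 to 1.69), 1.13 (0.571 to 2.32) and 1.25 (0.588 to 2.82). The mean log2 fold was -0.02 ± 0.10 (SD, n = 2) over IgG and 0.25 ± 0.10 (SD, n = 2) over wild type.

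Erc1 encodes ELKS1, a coiled-coil scaffold found at the active zone and also in other cells (chr6:119570796-119848167, minus strand). It was the thinnest of the 5 in reads, with 11 HA and 4 IgG reads in mouse 1, 11 HA and 10 wild-type reads for HA 1, and 25 HA and 14 wild-type reads for HA 2. The folds were 0.950 (0.282 to 4.09), 0.779 (0.300 to 2.05) and 1.02 (0.510 to 2.12). Only the list of HA 1 over wild type and that of HA 2 over wild type gave it at least 20 reads. The mean log2 fold over wild type was -0.17 ± 0.28 (SD, n = 2).

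Syn2 encodes synapsin 2, a vesicle phosphoprotein (chr6:115134902-115282006, plus strand). It had 26 HA and 12 IgG reads in mouse 1, 75 HA and 63 wild-type reads for HA 1, and 37 HA and 27 wild-type reads for HA 2. Its folds were below 1 in each of these lists, 0.749 (0.365 to 1.63), 0.843 (0.595 to 1.20) and 0.783 (0.464 to 1.34), with intervals that reached above 1. The mean log2 fold over wild type was -0.30 ± 0.08 (SD, n = 2). Some of its regions were shared with Timp4 and Gm17482, which lie within the Syn2 gene; without these regions the mean was -0.47. Whether strand was used in counting is not stated in the labels or headers, so reads of Syn2 and of a gene on the other strand cannot be told apart there.

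The number of HA reads per kb of region gave no stable order of the 5 genes. Syn2 was highest over IgG in mouse 1, with 5.42 HA reads per kb (95% exact Poisson interval 3.54 to 7.94), and lowest over wild type with HA 2, with 2.18 (1.53 to 3.0). Nrxn3 was the lowest over IgG in both mice, with 2.49 (1.72 to 3.47) and 2.32 (1.80 to 2.96) HA reads per kb. Rims1 was highest in both lists over wild type, with 3.27 (2.42 to 4.33) and 4.01 (2.99 to 5.28). In each list all neighbours in the order had overlapping intervals.

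Rims1, Erc1 and Syn2 had no region in the list of HA 2 over IgG 2, and the 3 genes lie on chromosomes 1 and 6. That list held 0 regions on chromosome 1 and 4 on chromosome 6, against 828 on chromosome 12 and 817 on chromosome 15, and 85.7% of its regions lay on chromosomes 12 and 15. The other lists had 29.3% to 30.6% of their regions on these chromosomes and between 615 and 1299 regions on each of chromosomes 1 and 6. The missing values of Rims1, Erc1 and Syn2 thus come with an almost empty chromosome and say nothing about these mRNAs. Nrxn3 on chromosome 12 and Rims2 on chromosome 15 were the only members that could be compared over IgG in both mice.

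**Figure D2:**
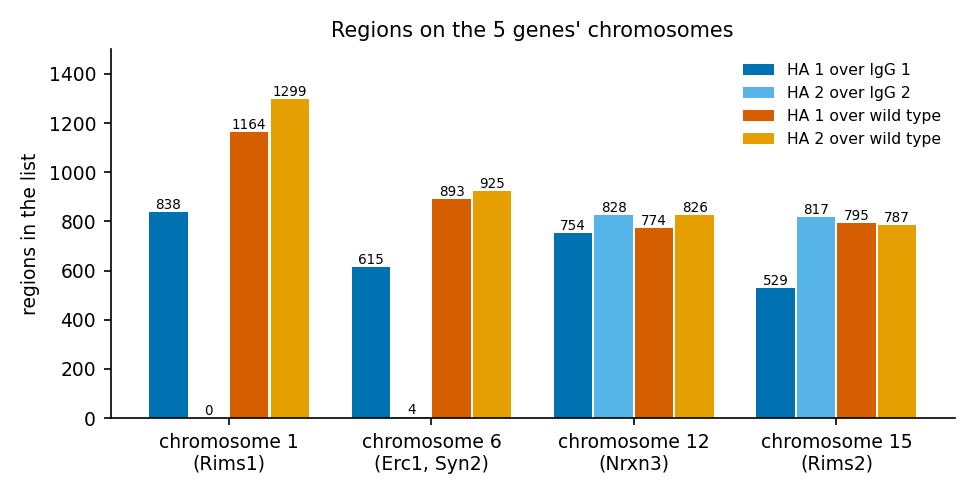
Number of called regions in each of the 4 lists on the chromosomes that carry the 5 genes. The list of HA 2 over IgG 2 has 0 regions on chromosome 1 and 4 on chromosome 6, and 828 and 817 on chromosomes 12 and 15.

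The test over IgG used limma on log2(reads + 0.5) with the mouse as a block, fitted to the 390 genes with at least 20 reads in both IgG lists. Nrxn3 had a log2 fold of 0.25 (SE 0.15, 95% interval -0.20 to 0.69, adjusted p = 0.281), a fold of 1.19 (0.872 to 1.62), and was above the list median in both mice. Rims2 had a log2 fold of -0.05 (SE 0.19, interval -0.61 to 0.51, adjusted p = 0.856), a fold of 0.968 (0.656 to 1.43), with mouse 1 above and mouse 2 below the median. Neither of these 2 members passed an adjusted p of 0.05 or an unadjusted p of 0.05, whereas 31.8% of the genes fitted passed the adjusted threshold, 29 higher and 95 lower. Of the genes fitted, 356 were on chromosome 12 or 15, and the median log2 fold of all was -0.38, of those on chromosome 12 -0.76 and of those on chromosome 15 -0.14.

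These values depend on what counts as the middle. With the median of the fitted genes as zero, Nrxn3 had a log2 fold of 0.63 (limma, adjusted p = 0.050, just under the threshold) and Rims2 one of 0.34 (adjusted p = 0.441). With the pooled ratio of each list as zero, which is carried by the regions with most reads, Nrxn3 had -0.50 (limma, adjusted p = 0.188) and Rims2 -0.80 (adjusted p = 0.047). Over exonic regions alone Nrxn3 had -0.10 (limma, adjusted p = 0.614). No direction over IgG can be given for Nrxn3 or Rims2 that holds under these 3 choices. On the pooled scale the members' folds ran from 0.560 to 0.879 over IgG 1, from 0.442 to 0.586 over IgG 2, from 1.29 to 1.92 over wild type with HA 1 and from 1.49 to 2.65 with HA 2. Past 2-fold were then 0, 1, 0 and 2 of the members.

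The 2 kinds of control were set side by side over regions with identical coordinates in the IgG and wild-type lists of a mouse. In mouse 1, Nrxn3 had 31 HA, 10 IgG and 19 wild-type reads, Rims1 33, 13 and 17, Rims2 24, 8 and 15, Erc1 11, 4 and 10, and Syn2 26, 12 and 17. Here the wild-type library lay between IgG and HA for each of the 5 genes. In mouse 2, Nrxn3 had 66 HA, 56 IgG and 27 wild-type reads, and Rims2 24, 27 and 11, so the wild-type library was the lowest. Over the member regions the wild-type to IgG read ratio was 1.66 (1.14 to 2.44) in mouse 1 and 0.458 (0.303 to 0.680) in mouse 2. All shared regions gave 2.74 and 0.835, and the median of those with at least 20 control reads was 1.97 and 0.438, so the members turned between mice as the other regions did. The wild-type library is the same in both mice, and the library totals behind these ratios are unknown. No test was made over wild type, since 1 wild-type library served both lists.

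**Figure D3:**
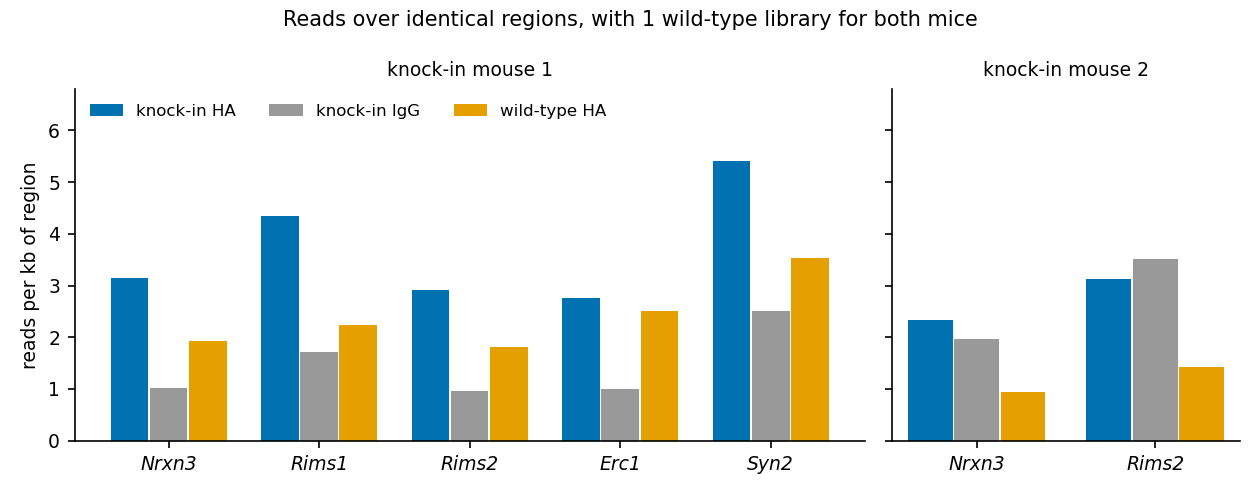
Reads per kb (vertical axis, from 0) over regions with identical coordinates in the IgG and the wild-type list of knock-in mouse 1 (left) and mouse 2 (right), for knock-in HA, knock-in IgG and the single wild-type HA library. The wild-type bar lies between IgG and HA for all 5 genes in mouse 1 and is the lowest for Nrxn3 and Rims2 in mouse 2.

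The regions were then placed along the genes. Each region was put in one class, in the order 3′ UTR, 5′ UTR, coding exon and intron, by the first of these that it touched. Over the 4 lists, 17 regions touched a 3′ UTR, 13 a 5′ UTR, 40 coding exons only and 22 no exon, with a region counted once in each list that held it. The 3′ UTR regions held 49.2%, 37.8%, 45.8% and 35.5% of the members' HA reads in the 4 lists. In other protein-coding genes with HA reads in the members' range they held 69.1%, 68.2%, 75.2% and 72.5%. In all protein-coding genes they held 51.3%, 47.8%, 69.1% and 51.1%. The members also had less of their region length in 3′ UTR regions, 51.3%, 25.7%, 36.5% and 26.3%. In the genes with reads in the members' range it was 69.5%, 64.7%, 76.0% and 69.8%. The members' 3′ UTR regions had 3.20, 3.67, 3.84 and 3.79 HA reads per kb, beside 5.53, 3.50, 2.77 and 3.07 in their coding and 5′ UTR regions. The reads per kb were thus higher at the 3′ UTR in 3 lists and lower over IgG in mouse 1, and no test was made of any of these comparisons. Many 3′ UTR regions reach into coding exons, so reads cannot be placed on the coding or the untranslated side of the stop codon.

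The region with the most HA reads was the last one of the gene in every list for Nrxn3, Rims1, Rims2 and Erc1. For Nrxn3 it counted 15 HA against 4 IgG reads in mouse 1, 18 against 27 in mouse 2, and 9 wild-type reads against each HA library. For Rims1 it held 20 HA reads in every list in which it was called, against 7 IgG reads in mouse 1 and 13 wild-type reads in both wild-type lists. For Rims2 it counted 13 HA against 5 IgG reads in mouse 1, 16 against 18 in mouse 2, and 10 and 9 wild-type reads. The ends of these 3 genes also held the most control reads of any of their regions, except in Nrxn3 over IgG in mouse 1, where the 5′ UTR region held 6 IgG reads. For Erc1 the last region held 9 HA and 3 IgG reads in mouse 1, 9 HA and 10 wild-type reads for HA 1, and 18 HA and 12 wild-type reads for HA 2. The next regions had fewer HA reads, with 8 and 9 at the 5′ UTR of Nrxn3, between 8 and 11 in Rims1, between 3 and 5 in Rims2 and between 2 and 3 in Erc1, but most were shorter. Per kb, the Nrxn3 3′ end had 2.98 HA reads in the lists of HA 1 and 6.00 in those of HA 2, beside 6.67 and 5.62 at its 5′ UTR. The Rims2 3′ end had 2.53 and 2.55 HA reads per kb, beside 3.51 and 8.77 in the next region, and the Erc1 3′ end 2.50 and 3.60, beside 5.00 at the 5′ UTR. The Rims1 3′ end had 4.65 over IgG in mouse 1, 4.65 over wild type with HA 1 and 4.24 with HA 2, beside 7.80, 1.42 and 6.71. The last region thus led in HA reads but mostly not in HA reads per kb.

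Syn2 had no such common peak. Its first place went to the 5′ UTR over IgG in mouse 1 (15 HA and 5 IgG reads), to a 3′ UTR region over wild type with HA 1 (24 HA and 23 wild-type reads) and to a region around coding exon 6 over wild type with HA 2 (23 HA and 14 wild-type reads). The region around exon 6 was one of those shared with Timp4 and Gm17482. The next Syn2 regions held 6, 15 and 8 HA reads.

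**Figure D4:**
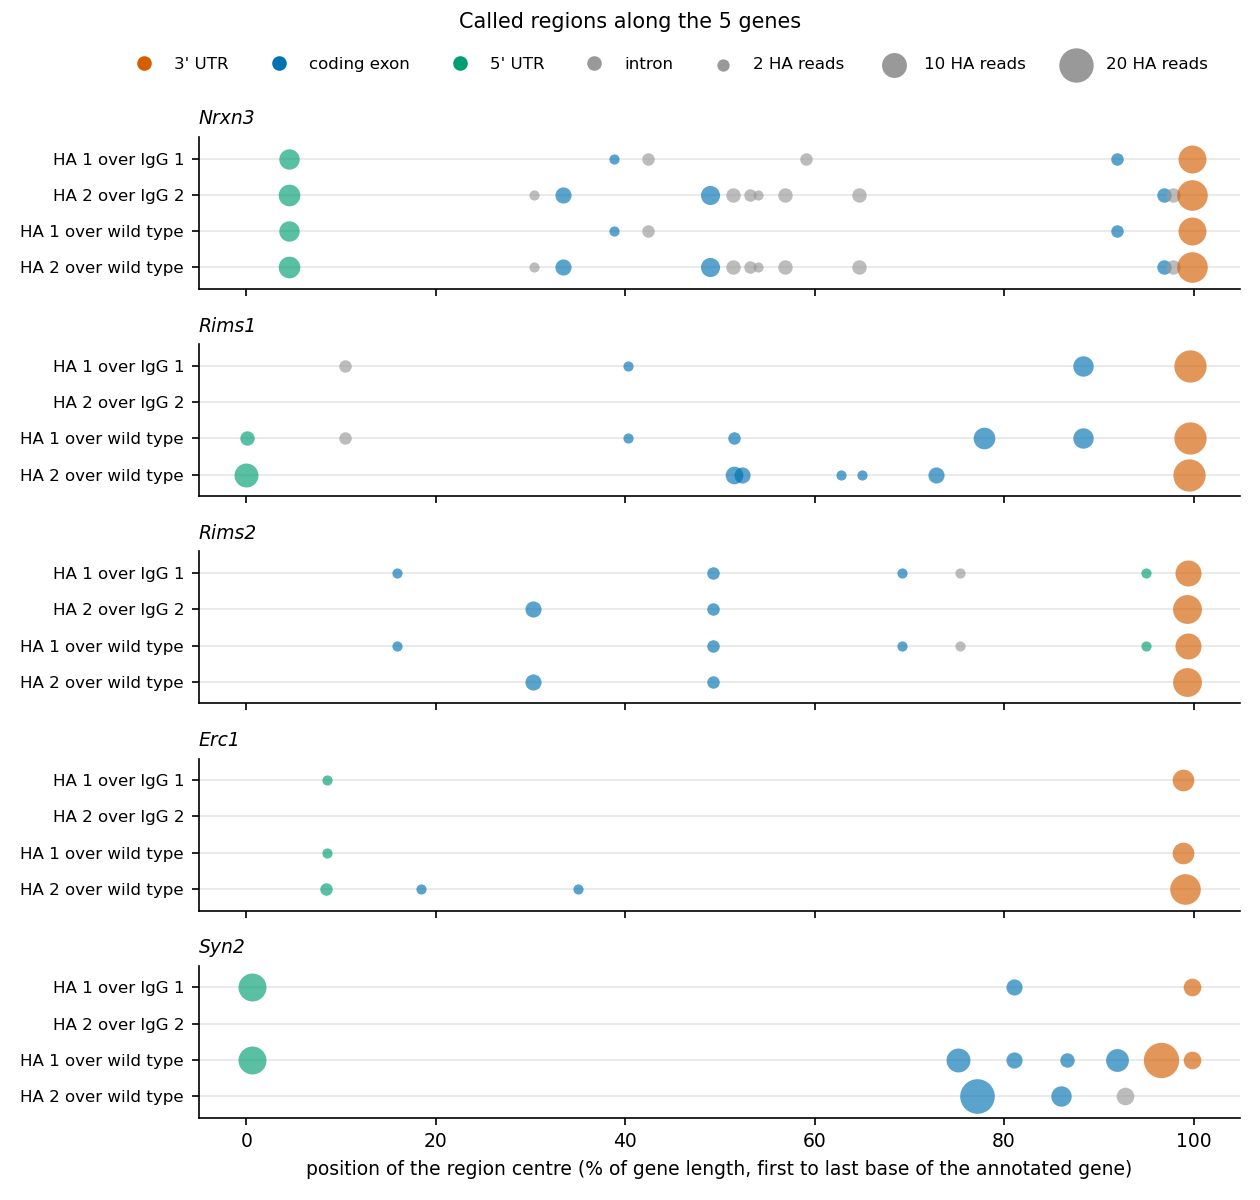
Called regions along the 5 genes by list: the horizontal axis gives the centre of a region in percent of gene length from the first to the last base, circle area is proportional to HA reads, and colour gives the class. The largest circles of Nrxn3, Rims1, Rims2 and Erc1 lie at the 3′ end in each list, while those of Syn2 move from list to list.

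Coverage of the reading frames was partial. Coding exons that lay wholly inside a region in any list numbered 7 of 20 in Nrxn3, 16 of 37 in Rims1, 6 of 27 in Rims2, 2 of 19 in Erc1 and 8 of 13 in Syn2. The share of member regions that touched an exon was 81.0%, 53.3%, 88.9% and 72.4%, beside 87.4%, 87.8%, 88.7% and 88.9% of all regions on genes, with Nrxn3 giving all 7 intronic regions in the list of HA 2 over IgG 2.

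The regions of the 5 genes were then compared between mice. Over IgG, 4 of 12 Nrxn3 and Rims2 regions of mouse 1 (33.3%) and 4 of 15 of mouse 2 (26.7%) overlapped a region of the same gene in the other mouse. For other genes with 24 to 66 HA reads in both IgG lists, the range of Nrxn3 and Rims2, 71.4% and 68.3% of the regions did. Over wild type, 13 of 27 (48.1%) and 12 of 29 (41.4%) member regions overlapped, beside 70.6% and 69.8% for genes with 11 to 75 HA reads in both lists. The comparison genes had fewer regions each than the members. They had 2.60 and 2.80 regions per gene in the IgG lists, where Nrxn3 and Rims2 together had 12 and 15. In the wild-type lists they had 2.27 and 2.31 per gene, where the 5 genes together had 27 and 29. The part of this difference in the shares was not tested. No test was made of these shares, since regions of 1 gene are not independent. The overlapping regions held 67.2% and 51.1% of the members' HA reads in the IgG lists, and 56.3% and 69.5% in the others. In the genes with like reads they held 93.3% and 89.9%, and 89.9% and 90.5%. The 3′ ends of Nrxn3 and Rims2 were among them in each mouse. The authors' deposited table gave an adjusted p below 0.05 to 9 of 21, 12 of 15, 21 of 27 and 23 of 29 member regions, beside 64.6%, 87.3%, 82.3% and 78.8% of all regions. By the empirical false discovery rate in the authors' deposited table, 0 of 21, 10 of 15, 21 of 27 and 20 of 29 member regions were below 0.1, beside 4.25%, 71.8%, 48.2% and 48.0% of all regions.

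Other mRNAs of the same machinery were also found in the lists. Of 28 active zone genes, 12 (42.9%) had a region in any list, beside 16.7% of all protein-coding genes, and 11 reached 20 reads. The members Nrxn3, Rims1, Rims2 and Erc1, chosen by name as genes with a region, are 4 of the 12. All 12 lie on chromosomes 1, 4, 6, 7, 12, 15 or X. The 16.7% counts every protein-coding gene, expressed in hippocampus or not. The share here and those of the 2 other gene lists below are thus no measure of enrichment, which was not tested. The 4 lists held 7, 2, 9 and 9 active zone genes with at least 20 reads, with median folds of 1.00, 1.09, 1.05 and 1.14, beside 0.839, 0.822, 1.15 and 1.10 for all genes. Rims3, a short RIM isoform gene without the vesicle-binding part, was the only one past 2-fold, at 3.97 over IgG in mouse 1. That value rests on 23 HA and 2 IgG reads (0.982 to 34.8), and over wild type Rims3 had 1.00 and 1.07. Ppfia4, a liprin scaffold, had folds of 0.716 over IgG in mouse 1 and 1.28 and 1.14 over wild type. Ptprd, a receptor phosphatase that binds liprins, had 1.00, 1.05 and 1.58. Ppfia1, Ppfia3, Cask and Unc13b also reached 20 reads in a list.

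Of 34 vesicle release genes, 13 (38.2%) had a region and 12 reached 20 reads, Syn2 among them. The median folds were 1.54 over IgG in mouse 1 (7 genes), 0.830 in mouse 2 (1 gene, Syngr1), and 1.16 (9 genes) and 0.868 (7 genes) over wild type, with no gene past 2-fold. Syn1, the closest relative of Syn2, had 143 HA and 86 IgG reads in mouse 1 and a fold of 0.574 (0.437 to 0.760), and 181 HA and 114 wild-type reads with HA 2 and a fold of 0.907 (0.714 to 1.16). Both synapsins were thus below 1 wherever they had a region, and the interval of Syn1 over IgG excluded 1. The Syn1 folds rest on 2 regions that spanned 44.1 kb and 3 that spanned 45.2 kb in sum. Whether their reads came from other genes was not examined. On the pooled scale of the list over wild type Syn2 was above 1 instead. Syt2, a calcium sensor of release, had folds of 1.76, 1.17 and 0.719, and Vamp1, a vesicle SNARE, 1.68, 1.45 and 1.03, in the order IgG in mouse 1, wild type with HA 1 and wild type with HA 2. Sh3gl2, an endocytic endophilin, had 0.957, 1.16 and 1.11 in the same lists. Syngr1, a vesicle membrane protein, had folds of 1.73 and 0.830 in the IgG lists, and of 0.677 and 0.629 against wild type. Slc17a7, the vesicular glutamate transporter, had 1.07 and Doc2a, another calcium sensor, 1.15, each over wild type with HA 1 alone. Each of these folds rests on 1 region, of 21 kb for Slc17a7 and 41 kb for Doc2a, with the same limit as for Syn1. Sv2b, Syp and Vamp2 also reached 20 reads in a list.

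Of 11 genes for neurexin partners, 3 (27.3%) had a region in any list. Nlgn3, which encodes a postsynaptic neurexin receptor, had folds of 0.691 (0.503 to 0.958) over IgG in mouse 1 and 0.805 (0.594 to 1.09) over wild type with HA 2. Each fold rests on 1 region, of 51.9 kb and 49.4 kb, and whether its reads came from other genes was not examined. Lrrtm1, another neurexin receptor, reached 20 reads over wild type only, with folds of 0.436 (0.157 to 1.13) with HA 1 and 0.747 (0.342 to 1.67) with HA 2. Its value with HA 1 was the only one of these partners past 2-fold among values with at least 20 reads. Of the active zone genes 2, of the vesicle release genes 1 and of the partners 0 lie on chromosome 12 or 15, the chromosomes with most regions of the list of HA 2 over IgG 2.

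**Figure D5:**
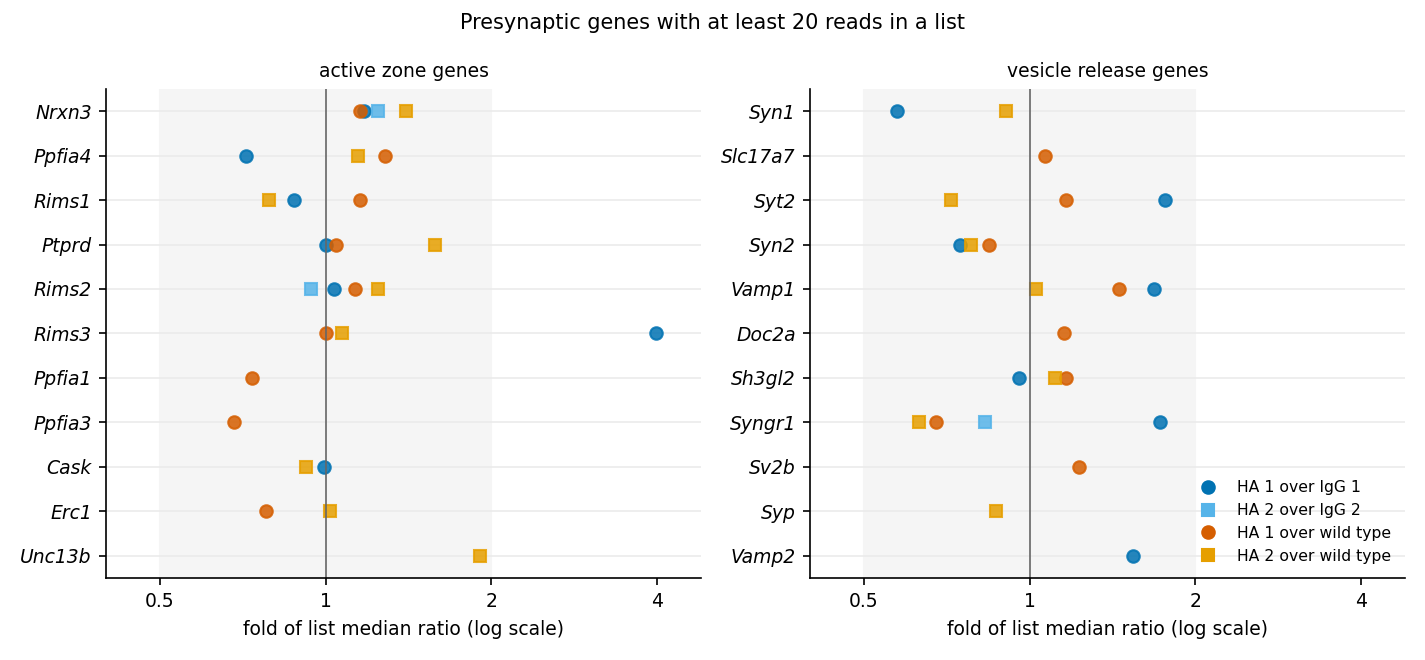
Folds (log axis) of active zone genes (left) and vesicle release genes (right) with at least 20 reads in a list, 1 vesicle release gene left out; colour and shape give the list and the grey band runs from 0.5 to 2. Rims3 over IgG in mouse 1 is the only point shown outside the band.

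The genes whose folds were most like those of each member were named by the Euclidean distance of log2 folds over the lists in which the member had a region. For Nrxn3 they were Tnrc6b, Map3k9 and Acvr1b, at distances of 0.25, 0.26 and 0.29 among 326 candidate genes over 4 lists. For Rims2 they were Arid2, March6 and Pacs2, at 0.14, 0.27 and 0.28 over the same number. Every one of these 6 genes lies on chromosome 12 or 15, as did 95.7% of the candidates. For Rims1 the nearest were Tet3, Thrap3 and Atp2b4, at 0.11, 0.15 and 0.17 among 718 genes over 3 lists. For Erc1 they were Rab11fip5, Slc4a8 and Selo, at 0.11, 0.14 and 0.19 among 719, and for Syn2 Wnk1, Kcnj4 and Ep300, at 0.07, 0.09 and 0.14 among 718. None of these genes is in the 3 presynaptic lists above.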

How the data were processed

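RNA precipitated with anti-HA or control IgG from hippocampi was made into NEBNext Ultra libraries and read single-end for 50 cycles on an Illumina HiSeq, per the labels' protocols (2 knock-in HA, 2 knock-in IgG and 1 wild-type HA library). TopHat2, TopHat, GRCm38 and mm10 are named by the submitters' processing notes, and rtracklayer 1.28.9 wrote the lists, per the file headers. The sources used here do not name the region caller. The deposited lists hold, among other values, the reads of 1 HA and 1 control library in each region, not scaled by the authors to library size, and the authors' adjusted p-values. The list names tell which libraries a list joins, and the HA and IgG libraries of a mouse are paired because the lists join them by mouse number. Across the genes fitted, the HA and the IgG pair differences had a correlation of 0.683.

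Reads were summed over the regions on a gene, and a control of 0 was counted as 3 reads in a ratio. Over regions with identical coordinates and at least 20 reads, the HA libraries agreed within sampling noise in the IgG lists (chi-square p = 0.537, 86 regions). In the wild-type lists, regions whose wild-type reads were unequal were left out; the HA libraries then differed over 71 regions (chi-square p = 1.35e-07) and agreed within sampling noise over the 70 other than Malat1 (chi-square p = 0.337). With no other HA pair to set beside this, they were counted as the 2 samples the labels list. Nothing says that samples came from separate animals, so p-values measure only the spread between these samples. limma 3.58.1 (R 4.3.3) with a mean-variance trend and Benjamini-Hochberg adjustment replaced the planned count model, which needs reads in columns of their own; edgeR was not used. The limma step was tested on simulated data. Genes named beside the members were those of 3 lists with at least 20 reads in a list, with folds for the 12 with the most HA reads, and the 3 genes nearest to each member; 1 of the list genes is not reported here. Members and lists were chosen with earlier results of these data known. Coordinates were read against GENCODE M21, in which 99.6% of the gene identifiers were found.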

Additional observations from a re-analysis of the deposited data

How the results depend on the processing

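Values here are log2 folds unless a count is named. With the pooled ratio of the list as the scale, Nrxn3 over IgG turned to -0.50 and Rims2 moved to -0.80 (limma, adjusted p = 0.188 and 0.047), and genes called lower rose from 95 to 265. Over wild type that scale moved Nrxn3, Rims1, Rims2, Erc1 and Syn2 to 1.17, 0.76, 1.08, 0.66 and 0.53, and without the region with the most wild-type reads to 0.85, 0.44, 0.75, 0.34 and 0.20. With the median of the genes fitted as the scale, added after the data were seen, Nrxn3 had 0.63 and Rims2 0.34 (limma, adjusted p = 0.050 and 0.441), and 74 genes were called higher. Regions that touch an exon gave -0.10 for Nrxn3 over IgG, and 0.018 for Nrxn3 and -0.43 for Syn2 over wild type. Regions wholly inside the gene gave 0.92 for Rims2 and -0.39 for Syn2 over wild type and 26 genes called lower. Rims2 then had too few reads over IgG, and at least 50 reads per list left out both Nrxn3 and Rims2. Syn2 without the regions shared with Timp4 or Gm17482 had -0.47, and a pseudocount of 1 gave 47 genes called lower, both added after the data were seen. Without the replicate block for the mouse, limma called 13 genes higher and 0 lower (177 genes had an unadjusted p below 0.05 with the block), at adjusted p = 0.997 for Nrxn3 and Rims2 with the same values. Without replicate 1 or 2, Nrxn3 ran from 0.23 to 0.32 and Rims2 from -0.09 to 0.05 over IgG, each with no test. Over wild type the same ranges were 0.21 to 0.48 for Nrxn3, -0.34 to 0.21 for Rims1, 0.18 to 0.32 for Rims2, -0.36 to 0.03 for Erc1 and -0.35 to -0.25 for Syn2. Scaling factors and tests of edgeR and DESeq2 were not run. With 11 to 75 HA reads per member and list, counting error limits every fold.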
